A study of Mus musculus with 6 samples.

Results

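Small nucleolar RNAs (snoRNAs) were followed in B16-F1 melanoma tumours grown in mice with and without Stat2. The members were chosen by symbol, as all genes named Snora or Snord plus a number and at most 1 letter, and each was read by a probe set chosen by its mean signal, the brightest among those naming that gene alone. There were 73 of them among the 22180 genes measured, 26 Snora genes and 47 Snord genes. A further 25 snoRNA symbols, 9 Snora and 16 Snord, stood only on probe sets that name several genes and were left out, as were 2 symbols with another suffix. Brightness over all 6 arrays chose the probe set and so decided something only for Snora33, since 71 members had 1 probe set and the 2 of Snora19 held the same values. The family was chosen with the difference of Snora75 already known, so that difference is given as a description, with no p of its own.

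All tumours came from B16-F1 cells, a pigmented mouse melanoma line, implanted at the dorsal flank of C57BL6-background mice. The hosts were WT in 3 cases and Stat2 KO in 3, and tumours were collected at day 20. The labels place the knockout in the host; they do not say that the implanted cells lack Stat2, how the allele was made, the age of the mice, or whether each tumour came from its own mouse. Each tumour was hybridized to 1 array. The p-values reflect only how much these 6 tumours varied, and the limma fit draws each gene's variance toward that of genes with like signal.

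snoRNAs are short nuclear RNAs that guide the chemical modification of other RNAs, mostly ribosomal RNA. Box H/ACA snoRNAs, with Snora symbols, pair with their target so that the enzyme dyskerin (Dkc1) can convert uridine to pseudouridine. Box C/D snoRNAs, with Snord symbols, direct the methyltransferase fibrillarin to the ribose of the target base. Most vertebrate snoRNAs are cut out of the introns of other genes, called host genes, many of which make ribosomal proteins or other parts of the translation machinery. A few, among them the U8 RNA (Snord118) and the U13 RNA (Snord13), are transcribed from genes of their own and help to process or modify precursor ribosomal RNA.

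In the RefSeq gene table (GRCm38.p6) the Snora genes had a median length of 118 bases and the Snord genes of 68. The RNA was cleaned on RNeasy columns, whose standard form keeps long RNA better than RNA of such lengths, and the probe sets do not separate a mature snoRNA from its precursor or host intron. A value here is therefore the log2 signal of a snoRNA's sequence in whatever RNA carried it. Signals of different probe sets depend also on their probes and do not rank the amounts of different snoRNAs. In these bulk tumours, fewer cells of a type and less RNA per cell cannot be told apart.

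Arrays resembled each other closely, with correlations across genes between 0.964 and 0.986 and median log2 signals over genes between 6.27 and 6.44. Stat2 itself read 6.45, 6.48 and 6.33 in Stat2 KO hosts, against 6.79, 6.70 and 6.70 in WT hosts, a weak check of the labels because the tumour cells may carry the gene. The melanocyte markers were present, with all 10 measured and a median log2 signal of 10.84. Summed over the 10 markers, the log2 values ranged from 103 to 108 in Stat2 KO hosts and from 106 to 109 in WT hosts. The summed values of 12 leukocyte markers ranged from 72.0 to 74.4 against 75 to 76.5, those of 5 fibroblast markers from 30.7 to 33.2 against 33.7 to 35.6, and those of 3 endothelial markers from 21.3 to 22.8 against 22.4 to 22.5. Those of 4 skeletal muscle markers ranged from 24.4 to 25.4 against 23.8 to 23.9 and those of 5 neuronal markers from 32.4 to 33.3 against 31.5 to 32.6. The part of cell makeup in the snoRNA differences was not tested.

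Most snoRNAs gave a clear signal in these tumours. Snora genes read between 5.23 and 12.08 with a median of 9.05, and Snord genes between 4.02 and 12.15 with a median of 7.51 (mean log2 signal over 6 arrays). Olfactory receptor genes, not known as melanoma genes, read at a median of 5.21 with a 95th percentile of 6.73. Above that percentile lay 22 of 26 Snora and 32 of 47 Snord genes. Below the olfactory receptor median lay 0 Snora and 8 Snord genes, so the differences of those 8 rest on signals not shown to stand above background.

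**Figure D1:**
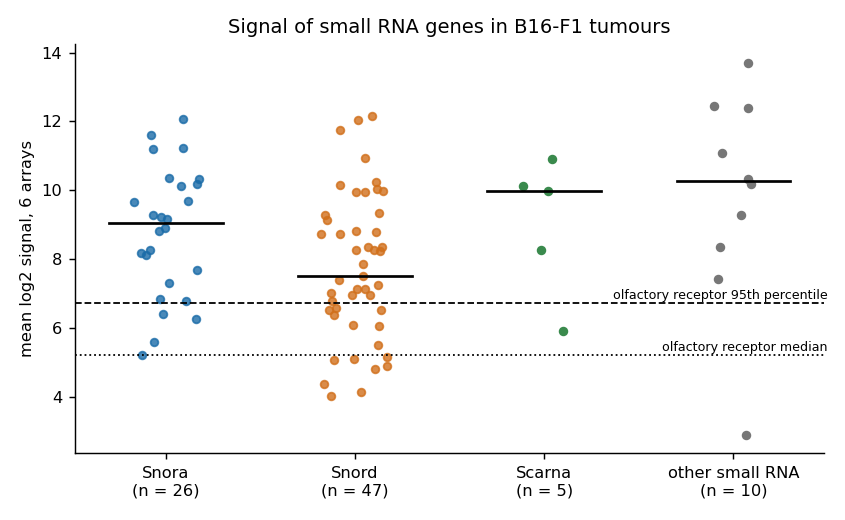
Mean log2 signal over 6 arrays (vertical axis) of each Snora, Snord, Scarna and other small RNA gene, 1 point per gene with a bar at the class median. The lower dotted line marks the median of olfactory receptor genes at 5.21 and the upper dashed line their 95th percentile at 6.73; 8 Snord points and no Snora point lie below the dotted line.

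Among the H/ACA RNAs the brightest probe set was that of Snora33, which reads an RNA from the ribosomal protein gene Rps12. It gave 12.14, 12.22 and 12.20 in Stat2 KO hosts, in replicate order,, against 11.43, 12.26 and 12.21 in WT hosts. WT replicate 1 thus lay below 5 closely grouped tumours, and without it the difference of 0.22 became -0.05. The second, dimmer probe set of Snora33 averaged 7.39 and differed by 0.35. The pair Snora73a and Snora73b, copies of the U17 RNA that takes part in cutting the ribosomal precursor and both from Snhg3, averaged 11.22 and 11.61 and differed by 0.18 and 0.17. Their values overlapped between host genotypes. Snora19 was the dimmest at 5.23, and its 2 probe sets held the same values. Snora35, Snora20 and Snora47 came next with 5.60, 6.26 and 6.40.

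Among the C/D RNAs the brightest probe sets were those of Snord49b (12.15), Snord104 (12.03), Snord73b (11.74), Snord82 (10.95), Snord89 (10.23) and Snord87 (10.16). The dimmest were those of Snord91a (4.02), Snord37 (4.14), Snord19 (4.38) and Snord58b (4.81). Snord49b gave 12.12, 12.52 and 12.48 in Stat2 KO hosts, against 11.35, 12.09 and 12.32 in WT hosts, with overlapping groups and a difference of 0.46 (SE 0.222). Snord104 gave 12.12, 12.19 and 12.40 against 11.25, 12.04 and 12.18. In both of these RNAs WT replicate 1 was the lowest of the 6 tumours by a wide margin, and without it the differences were 0.17 and 0.13. Snora35, known from brain and held by the serotonin receptor gene Htr2c, read 5.60 on average, and the host gene itself read 4.51.

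Many snoRNAs read higher in tumours of Stat2 KO hosts, 22 of 26 Snora and 32 of 47 Snord genes, but no snoRNA passed the limma threshold of an adjusted p under 0.05. Over all genes 2 passed it, 0.00902% of those tested. On the log2 scale, 54 of 73 snoRNAs read higher in Stat2 KO hosts, where 54.0% of all genes and 82.0% of olfactory receptor genes did. The median difference was 0.204 for all snoRNAs, 0.324 for Snora and 0.14 for Snord, against 0.0209 over all genes. The quartiles of the differences were 0.17 and 0.52 for Snora and -0.03 and 0.28 for Snord. At an unadjusted limma p under 0.05, 15 snoRNAs were higher (5.34% of all genes) and 3 lower (3.48% of all genes). Of the 15 higher ones, 11 were Snora, Snora75 among them, and 4 Snord; the 3 lower ones were all Snord. Host genotypes did not overlap for 10 snoRNAs, each higher in Stat2 KO hosts, 7 of them Snora, again with Snora75, and 3 Snord, where 8.23% of all genes stood apart in that direction and 5.11% in the other. The difference between the 2 classes was not tested, since members are not replicates.

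**Figure D2:**
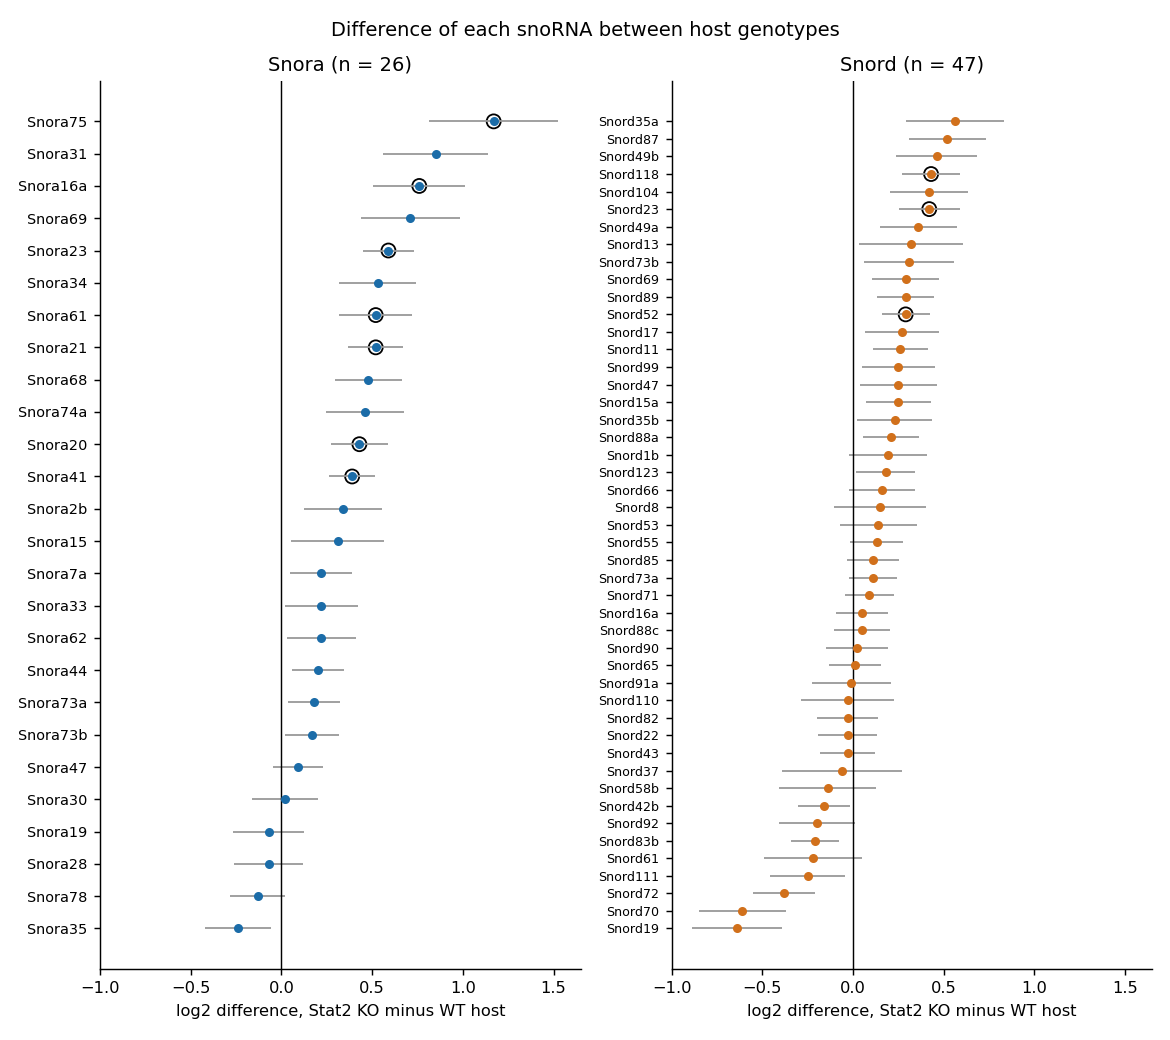
Log2 difference between Stat2 KO and WT hosts (horizontal axis) of each of 26 Snora genes on the left and 47 Snord genes on the right; bars are the standard error of the limma fit with 3 tumours a side, and black rings mark genes whose groups did not overlap. Snora75 lies at the top of the left panel with 1.17, and Snord70 and Snord19 at the bottom of the right panel with -0.61 and -0.64.

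Those counts moved with the scaling and with single arrays. After median centring of the arrays, 8 snoRNAs, all Snora, were higher at that p (2.95% of all genes) and 3 lower (5.0%), and 49 of 73 read higher where 39.7% of all genes did. Weights estimated by limma were largest for Stat2 KO replicate 3 (2.48) and WT replicate 2 (2.25) and between 0.510 and 0.878 for the other 4 arrays. With them, 27 were higher (12.1% of all genes) and 2 lower (10.5%). Leaving out Stat2 KO replicate 1 gave 24 higher (8.24% of all genes), replicate 2 gave 10 (3.94%) and replicate 3 gave 8 (3.39%). Leaving out WT replicate 1 gave 9 (3.44%), replicate 2 gave 14 (3.62%) and replicate 3 gave 16 (6.47%). Over the alternatives tried the Snora median lay between 0.249 and 0.408 and the Snord median between 0.0372 and 0.218.

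Signal strength and difference were related differently among snoRNAs and among all genes. Among the 11090 genes brighter than the median gene, the median difference was -0.0679 and 34.7% read higher in Stat2 KO hosts. Of the 59 snoRNAs in that set, 50 read higher, with a median of 0.245. A fit on that set alone put 15 of them higher at an unadjusted limma p under 0.05 (2.71% of the set) and 1 lower (5.75% of the set). Of the 14 snoRNAs at or below the median gene, 4 read higher, with a median of -0.105, where all genes of that kind had a median of 0.109. Across members, signal and difference had a Pearson correlation of 0.58 (n = 73), and across all genes of -0.332 (n = 22180). These are descriptions across genes that share the same 6 arrays.

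Apart from Snora75, 4 snoRNAs, namely Snora23, Snora21, Snora41 and Snora16a, kept an unadjusted limma p under 0.05 with each of the 6 arrays left out in turn, and no Snord gene did. The share of all genes that did so was not computed. Apart from Snora75, these 4 also had the smallest p on all 6 arrays, and the fits share most of their arrays. Snora23, from an intron of the nuclear import gene Ipo7, read 9.38, 9.51 and 9.69 in Stat2 KO hosts, against 8.84, 8.91 and 9.04 in WT hosts. Every Stat2 KO tumour lay above every WT tumour. The difference was 0.59 (SE 0.139), or 1.51-fold, with a limma adjusted p of 0.351 and an exact permutation p of 0.1, the smallest that 3 against 3 can give. With 1 array left out it ranged from 0.51 to 0.66. With array weights, under which 1.16% of all genes passed, it was 0.69 with a limma adjusted p of 0.03, the lowest of a range up to 0.887 among the alternatives.

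Snora21, which lies in the ribosomal protein gene Rpl23, read 11.27, 11.53 and 11.61 in Stat2 KO hosts, against 10.76, 11.00 and 11.09 in WT hosts. These groups did not overlap either, and the difference was 0.52 (SE 0.151, limma adjusted p = 0.461), or 0.58 under array weights, where the limma adjusted p was the lowest of a range from 0.0467 to 0.887. Snora41, from the elongation factor gene Eef1b2, read 6.94, 6.90 and 7.08 against 6.58, 6.59 and 6.59. Its WT values were the most alike of these RNAs, and the difference of 0.39 (SE 0.126, limma adjusted p = 0.486) moved only between 0.34 and 0.43 when arrays were left out. Snora16a, from the non-coding host gene Snhg12, read 10.29, 10.66 and 10.78 against 9.12, 10.28 and 10.04. Its groups stood apart only by the margin between 10.29 and 10.28, and WT replicate 1 was far below the rest. The difference was 0.76 (SE 0.253, limma adjusted p = 0.486) with all arrays and 0.41 without WT replicate 1.

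Snora75, long known as U23 and held by an intron of the nucleolin gene Ncl, showed the largest difference of the family and one of its widest spreads. It read 10.25, 12.01 and 10.48 in Stat2 KO hosts, against 9.63, 9.53 and 10.08 in WT hosts. The groups did not overlap, yet Stat2 KO replicate 2 stood far above the other 5 tumours. The difference was 1.17 (SE 0.354), or 2.25-fold. Leaving out that tumour gave 0.62, and leaving out Stat2 KO replicate 1 gave 1.5.

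The differences of the next H/ACA RNAs also moved with single tumours. Snora31, from the translationally controlled tumour protein gene Tpt1, read 9.76, 10.49 and 9.98 in Stat2 KO hosts, against 8.44, 9.46 and 9.77 in WT hosts. The groups met, and the difference of 0.85 (SE 0.290, limma adjusted p = 0.490) was 0.46 without WT replicate 1. Snora69, from the ribosomal protein gene Rpl39, read 8.44, 8.26 and 9.19 against 8.39, 8.02 and 7.34. Here Stat2 KO replicate 3 was highest and WT replicate 3 lowest, and the difference of 0.71 was 0.42 without the latter. Snora68 read 7.97, 8.49 and 8.58 against 7.61, 8.10 and 7.90, a difference of 0.48 (SE 0.185). Snora20, from the chaperonin gene Tcp1, read 6.47, 6.68 and 6.29 against 6.08, 5.83 and 6.24, a difference of 0.43 (SE 0.155) with groups that did not overlap. All 6 of its values lay under the 95th percentile of olfactory receptors. Snora61 and Snora34 differed by 0.52 and 0.53, and Snora61 was the remaining H/ACA RNA whose groups stood apart.

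In all, 4 of 26 H/ACA RNAs read lower in Stat2 KO hosts. These were Snora35 (-0.24), Snora78 (-0.13), Snora28 (-0.07) and Snora19 (-0.07), and all overlapped. Snora74a, the U19 RNA, read 8.72, 9.69 and 9.05 against 8.62, 8.55 and 8.91. Its difference of 0.46 became 0.19 without Stat2 KO replicate 2, the highest tumour. Snora62, the E2 RNA from the ribosomal protein gene Rpsa, differed by 0.22 (SE 0.189), and Snora7a, from Rpl32, by the same amount (SE 0.172).

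Among C/D RNAs, Snord118 had the smallest p. This is the U8 RNA, which is needed to mature the large ribosomal subunit's RNAs. It read 8.24, 8.54 and 8.70 in Stat2 KO hosts, against 8.13, 8.23 and 7.83 in WT hosts, without overlap, though Stat2 KO replicate 1 and WT replicate 2 nearly met. The difference was 0.43 (SE 0.160, limma adjusted p = 0.509), or 1.35-fold, and lay between 0.31 and 0.55 with 1 array left out. Snord13, the U13 RNA that guides acetylation of the small subunit's RNA, read 7.45, 7.08 and 8.47 against 7.01, 7.58 and 7.45. A single tumour, Stat2 KO replicate 3, stood high, and the difference of 0.32 became -0.08 without it.

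The other C/D RNAs with an unadjusted p under 0.05 and higher values were Snord23, Snord87 and Snord52. Snord23, from the ribosome assembly gene Nop53, read 9.17, 9.81 and 9.52 in Stat2 KO hosts, against 8.99, 9.09 and 9.16 in WT hosts. Its groups were apart by the margin between 9.17 and 9.16, and the difference was 0.42 (SE 0.167). Snord52 read 7.07, 7.17 and 7.24 against 6.77, 7.01 and 6.82, also apart, with a difference of 0.29 (SE 0.133). Snord87 read 10.16, 10.55 and 10.54 against 9.36, 10.21 and 10.13. Its difference of 0.52 (SE 0.213) was 0.24 without WT replicate 1, which lay well below the others.

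Snord19, Snord70 and Snord72 were the 3 that read lower at an unadjusted p under 0.05, each with overlapping groups. Snord19, from the nucleostemin gene Gnl3, read 4.14, 4.16 and 3.89 in Stat2 KO hosts, against 5.30, 4.15 and 4.66 in WT hosts. All but WT replicate 1 lay below the olfactory receptor median, and the difference of -0.64 (SE 0.249, limma adjusted p = 0.525) was -0.34 without that tumour. Snord70, from the box C/D core protein gene Nop58, read 6.15, 5.70 and 5.47 against 6.86, 6.43 and 5.84. Its difference was -0.61 (SE 0.238), with -0.37 to -0.87 when arrays were left out. Snord72, from Rpl37, read 6.38, 5.99 and 6.62 against 6.71, 6.87 and 6.55, a difference of -0.38 (SE 0.171) that was -0.21 without Stat2 KO replicate 2. Snord83b followed with -0.21 (SE 0.134).

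The 8 Snord genes with signals below the olfactory receptor median had differences from -0.64 to 0.02, and 7 of the 8 read lower. After Snord19 these were Snord111 (-0.25), Snord61 (-0.22), Snord92 (-0.20), Snord58b (-0.14), Snord37 (-0.06) and Snord91a (-0.01), with Snord90 at 0.02. Above the olfactory receptor 95th percentile, 26 of 32 Snord genes read higher, with a median of 0.246, and 20 of 22 Snora genes, with a median of 0.362. Across members, RNA length and difference had a Pearson correlation of 0.335 (n = 73), of 0.32 among Snord genes (n = 47) and of -0.0307 among Snora genes (n = 26). No member came from the imprinted brain snoRNA clusters.

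The 6 members whose difference moved most with 1 array were Snora75, Snord37, Snord13, Snora31, Snord35a and Snord110. Snord37, from the elongation factor gene Eef2, read 3.81, 3.45 and 5.10 in Stat2 KO hosts, against 4.30, 4.16 and 4.05 in WT hosts. Leaving out Stat2 KO replicate 3 turned its difference from -0.06 to -0.55, and leaving out replicate 2 to 0.28, on signals below the olfactory receptor median. Snord110, from the core protein gene Nop56, read 6.81, 6.93 and 6.54 against 6.05, 7.26 and 7.05. Its difference of -0.03 became -0.40 without WT replicate 1. Snord35a, an RNA of the ribosomal protein gene Rpl13a, read 10, 10.31 and 10.36 against 8.92, 9.80 and 10.29, and its difference of 0.56 (SE 0.270) became 0.18 without the same tumour.

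**Figure D3:**
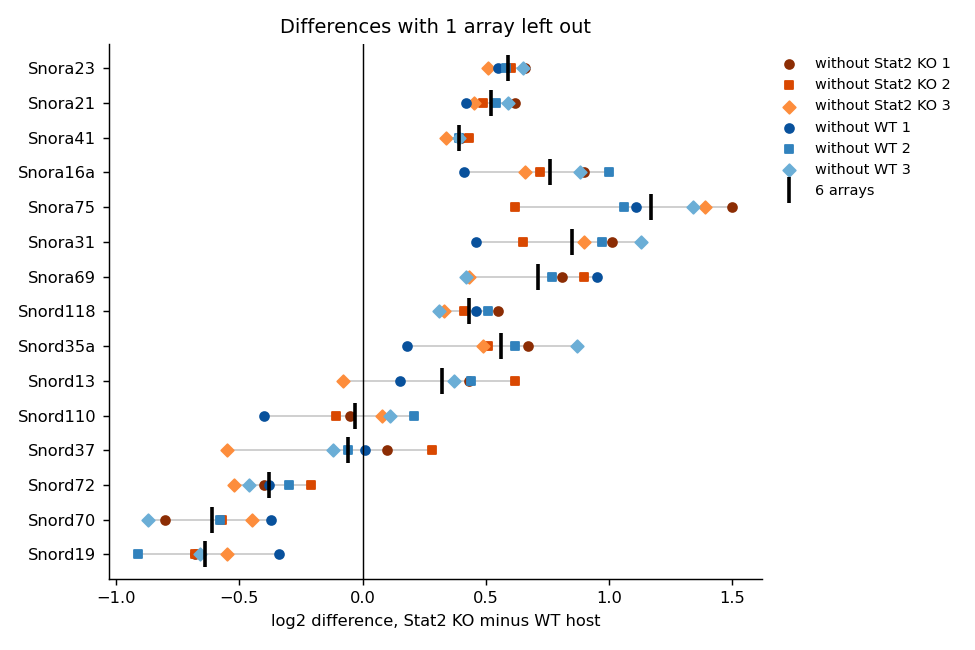
Log2 difference between Stat2 KO and WT hosts (horizontal axis) for 15 snoRNAs, with a black bar for all 6 arrays and a coloured mark for each array left out. Snora23, Snora21 and Snora41 keep tight marks, Snora75 drops from 1.17 to 0.62 without Stat2 KO replicate 2, and Snord13, Snord110 and Snord37 have marks on both sides of 0.

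WT replicate 1 carried the most weight over the family. It held the lowest value of 37 of 73 snoRNAs (50.7%), where it was lowest for 22.8% of all genes. Stat2 KO replicate 3 held the highest value of 28 (38.4%), where it was highest for 15.2% of all genes, and Stat2 KO replicate 2 of 18 (24.7%, against 26.6%). The median deviation of Snora genes from their 6-array means was 0.0398, 0.137 and 0.195 under Stat2 KO, in replicate order, against -0.19, -0.14 and -0.0651 under WT. That of Snord genes was -0.0238, 0.121 and 0.156 against -0.235, 0.0451 and -0.00931. Snora genes thus had all 3 Stat2 KO tumours above all 3 WT tumours. So did olfactory receptor genes and, by small deviations (at least 0.00977 against at most -0.000675), all genes. The 5 Scarna genes did so only by the margin between -0.0489 and -0.0521. For Snord genes Stat2 KO replicate 1 lay below WT replicates 2 and 3. Of all arrays, WT replicate 1 moved the difference most in 28 of 73 members, 21 of them Snord and 7 Snora. That count was not made for all genes. Without WT replicate 1 the Snord median was 0.0372 and the Snora median 0.334, with 0.0108 for all genes.

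The sign of the difference was kept with each array left out in turn for 48 of 73 snoRNAs, 40 higher and 8 lower. These were 22 of 26 Snora genes and 26 of 47 Snord genes. The share of all genes that kept their sign was not computed. The bright C/D RNAs Snord73b, Snord35b and Snord47 and the H/ACA RNA Snora33 were among those that turned. Their differences of 0.31, 0.23, 0.25 and 0.22 became -0.05, -0.05, -0.02 and -0.05 without WT replicate 1.

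The other small RNA genes had the same highest and lowest arrays as the snoRNAs, and the remaining classes did not share both. The 10 other small RNA genes, such as those of the 7SK, Y and telomerase RNAs, deviated by -0.183, 0.141 and 0.396 under Stat2 KO and by -0.461, -0.0622 and 0.03 under WT, with a median difference of 0.221. WT replicate 1 was lowest for 6 of these 10. The U3 RNA, a C/D RNA listed as Rnu3a and so outside the members, read 10.69, 11.95 and 11.59 against 10.22, 10.74 and 11.25. Its groups overlapped, with a difference of 0.67 (SE 0.302, limma adjusted p = 0.562). The 7SK RNA (Rn7sk) differed by -0.01 and the telomerase RNA (Terc) by 0.04. Of 5 Scarna genes, whose RNAs guide modification of spliceosomal RNAs in Cajal bodies, 4 read higher, with a class median of 0.188. Groups stood apart for Scarna8 (0.32) and Scarna2 (0.22), where 8.23% of all genes stood apart in that direction. Scarna8 averaged 5.92, under the olfactory receptor 95th percentile of 6.73. Scarna genes deviated most downward in WT replicate 2 (-0.16, against -0.0649 in WT replicate 1). Of the 1088 olfactory receptor genes 82.0% read higher, with a median of 0.223, against 74.0% of snoRNAs and 84.6% of Snora genes. At an unadjusted limma p under 0.05, 23.7% of them were higher, against 20.5% of snoRNAs and 42.3% of Snora genes. Their groups stood apart higher for 21.5%, against 13.7% and 26.9%. Olfactory receptor genes deviated by 0.0435, 0.0888 and 0.216 under Stat2 KO and by -0.105, -0.169 and -0.047 under WT. Their highest array was thus Stat2 KO replicate 3 and their lowest WT replicate 2. The 483 microRNA precursor genes had a median of 0.052, or -0.0228 after median centring, and were highest in Stat2 KO replicate 2 (0.0922) and lowest in WT replicate 1 (-0.1). The part of a shared array effect in the snoRNA differences was not tested.

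**Figure D4:**
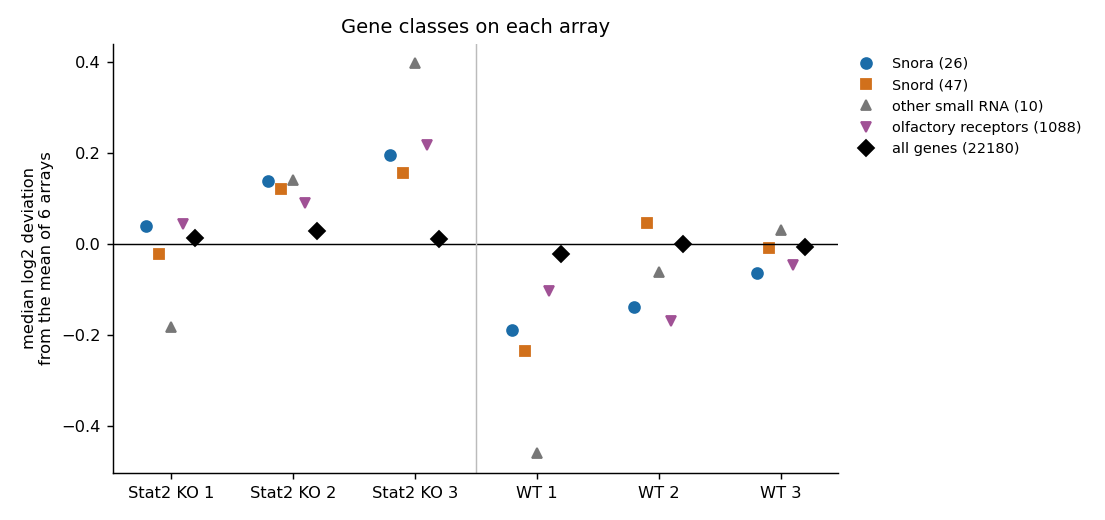
Median log2 deviation of each gene class from its mean over 6 arrays (vertical axis) on each array (horizontal axis, 3 Stat2 KO hosts left of the grey line and 3 WT hosts right of it). Snora and Snord genes lie lowest on WT replicate 1, at -0.19 and -0.235, and highest on Stat2 KO replicate 3, at 0.195 and 0.156, and the other small RNA genes have the same lowest and highest arrays.

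Most host genes read lower in tumours of Stat2 KO hosts while most of their snoRNAs read higher. RefSeq coordinates placed 70 of 73 snoRNAs inside the span of another gene, without regard to strand, and Snord118, Snord13 and Snord89 inside none. Of the 47 distinct host genes with a single-gene probe set, 34 read lower and 13 higher in Stat2 KO hosts, with a median difference of -0.104; between 30 and 38 of them read lower under the other scalings. Among all genes brighter than the median gene, 34.7% read higher. Among the 8797 genes above the olfactory receptor 95th percentile 28.3% did, with a median of -0.0895, so bright genes in general mostly read lower as well. At an unadjusted limma p under 0.05, 2 hosts were lower (Ncl and Snhg1, with 3.48% of all genes lower), 1 was higher (Mcmdc2, which overlaps Snord87 together with Snhg6, with 5.34% of all genes higher), and 0 passed the adjusted threshold. For 55 snoRNAs with a single measured host, the snoRNA's difference lay above that of its host in 44, by a median of 0.247. This held for 22 of 23 Snora genes and 22 of 32 Snord genes. Across these 55 pairs the 2 differences had a Pearson correlation of -0.0393 and a Spearman correlation of 0.0198, as a description, since pairs share arrays and some share a host.

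**Figure D5:**
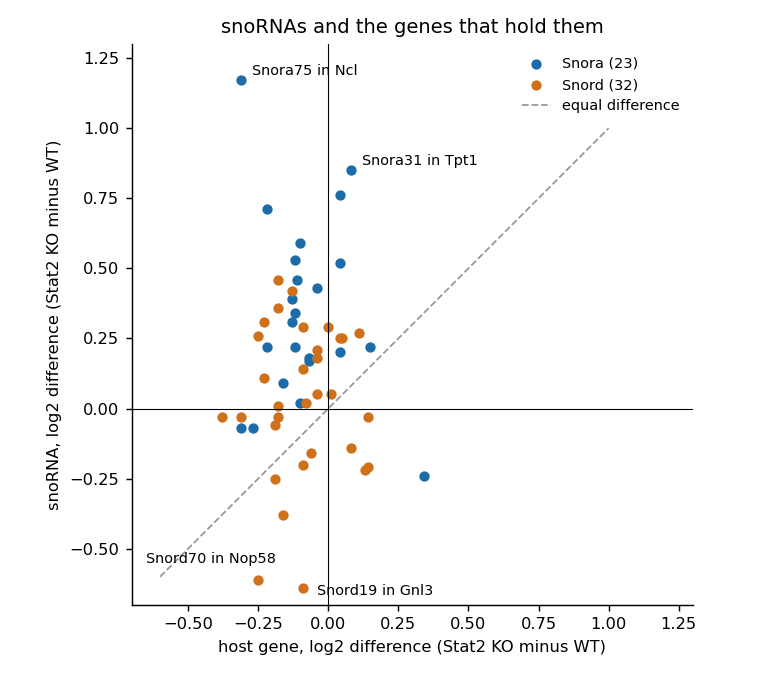
Log2 difference of each snoRNA (vertical axis) against that of the gene that holds it (horizontal axis) for 23 Snora and 32 Snord genes with 1 measured host; the dashed line marks equal differences. Of the 55 points, 44 lie above the line, with Snora75 at 1.17 against -0.31 for Ncl.

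In some host genes the snoRNAs differed by unlike amounts, and in others by like amounts. Ncl, which encodes nucleolin, a major nucleolar protein, read 9.96, 9.94 and 9.99 in Stat2 KO hosts, against 10.47, 10.22 and 10.12 in WT hosts, a difference of -0.31 (SE 0.139, limma adjusted p = 0.562). Its H/ACA RNA Snora75 differed by 1.17, while its C/D RNA Snord82 read 10.71, 11.14 and 10.95 against 10.71, 10.96 and 11.22, a difference of -0.03. Within each tumour, Snora75 minus Snord82 ran from -0.47 to 0.87 in Stat2 KO hosts and from -1.43 to -1.08 in WT hosts, without overlap. There were 18 pairs of snoRNAs that share a host. Of those without Snora75, 2 reached an exact permutation p of 0.1, the smallest possible, which leaves none past a correction.

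Both came from Snhg12, which holds 4 members. Snora16a, Snora61, Snord99 and Snora44 differed by 0.76, 0.52, 0.25 and 0.20, and Snhg12 itself by 0.04. The gap between Snora16a and Snora44 was 0.56 wider in Stat2 KO hosts, and that between Snora44 and Snora61 was smaller there (-0.31). In Gnl3 Snord69 differed by 0.29 and Snord19 by -0.64, and in Nop58 Snord11 by 0.26 and Snord70 by -0.61. Both of these pairs had an exact permutation p of 0.2. The 3 C/D RNAs of the lncRNA 2410006H16Rik, Snord49b, Snord49a and Snord65, differed by 0.46, 0.36 and 0.01, and the 2 of Rps3a1, Snord73b and Snord73a, by 0.31 and 0.11. Snord88a and Snord88c of 2410002F23Rik differed by 0.21 and 0.05, Snord53 and Snord92 of the ribosome biogenesis gene Wdr43 by 0.14 and -0.20, and Snora34 and Snora2b of Kansl2 by 0.53 and 0.34. Snora73a and Snora73b of Snhg3 differed by nearly the same amount, 0.18 and 0.17 (exact permutation p = 0.8 for the gap), and Snord43 and Snord83b of Rpl3 by -0.03 and -0.21.

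Of the 7 measured genes for core snoRNA-binding proteins, 5 read lower in tumours of Stat2 KO hosts. All 7 were brighter than the median gene, and of the 11090 such genes 7238 read lower, a share near that of the 7. Of the box C/D core, the scaffold genes Nop56 and Nop58 differed by -0.18 and -0.25 and Snu13, which binds the RNA's kink turn, by -0.18. Of the box H/ACA core, the pseudouridine synthase gene Dkc1 differed by -0.15, Nhp2 by -0.24, Nop10 by 0.07 and Gar1 by 0.09. Nop58 and Nhp2 had groups that did not overlap, as did 5.11% of all genes in that direction, and the limma adjusted p of these 7 genes ranged from 0.622 to 0.884. Fibrillarin was not measured by a probe set of its own. Of 16 measured assembly and transport factors, all brighter than the median gene too, 11 read lower, also near that share, with a median of -0.153. The H/ACA assembly genes Naf1 and Shq1 differed by -0.33 and -0.32, and Rpap3, a chaperone cofactor, by -0.40. Of 15 genes for intron debranching and trimming, 14 read lower, with a median of -0.123, a larger share than the 7238 of 11090. Under the other scalings 12 to 15 of them read lower, and 9 to 15 of the assembly and transport factors. None in either list passed even an unadjusted limma p of 0.05.

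Of 31 ribosome biogenesis genes, 29 read lower, with a median of -0.167, and 27 to 31 did under the other scalings. At an unadjusted limma p under 0.05, 3.48% of all genes were lower, and 623 of the 11090 genes brighter than the median gene. Among the biogenesis genes 6 were lower at that p. These were Ncl, Rrp1 (-0.42), Utp20 (-0.41), Polr1a, the largest subunit of RNA polymerase I (-0.39), the helicase gene Ddx21 (-0.38) and Bop1 (-0.33). None passed the adjusted threshold. Genes brighter than the median gene had a median of -0.0679. Of 64 ribosomal protein genes, 41 read lower, with a median of -0.0326, and 34 to 51 did under the other scalings. At an unadjusted limma p under 0.05, 2 were lower, near the 3.48% of all genes. Groups stood apart lower for 11 of the 64 and higher for 2. Of all genes 5.11% stood apart lower and 8.23% higher, and of genes brighter than the median gene 8.21% and 3.59%. Of 21 measured non-coding host genes, 11 read lower and 10 higher, with a median of -0.037. Among these Snhg1 differed by -0.38 (SE 0.141) and Snhg17 by 0.61 (SE 0.246), with limma adjusted p-values of 0.509 and 0.532.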

How the data were processed

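Total RNA of 6 tumours, 3 per host genotype, was extracted with TRIzol and RNeasy columns and labelled with biotin, per the labels' protocols. The submitters' processing notes name RMA and the Affymetrix Expression Console (version 1.3.1) as what the authors used for the deposited log2 values, 1 per probe set and array. A genome build, not given in the sources used here, was not needed. Of 41345 probe sets, 23521 name 1 gene, and the brightest per gene gave 22180 genes. Differences (Stat2 KO minus WT host) came from limma 3.58.1 in R 4.3.3, lmFit and eBayes with an intensity trend, two-sided, with Benjamini-Hochberg adjustment over all genes and a threshold of 0.05. The residual degrees of freedom were 4, and eBayes added 8.139 prior ones, drawn from the variances of all genes. The procedure was tested on simulated data. Host genes were taken from RefSeq (GRCm38.p6) by containment, since the table gives no strand. Probe intensities and scan information were not analysed here, and the number of arrays limits the precision.

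The members and lists were chosen with earlier results of these data known. The genes named were the 6 brightest and 4 dimmest of each class, the 10 higher and 5 lower members with the smallest p, the 6 most moved by 1 array, Snora75, host genes of these and the core proteins; members beyond these were named where they completed a count or shared a host, and Snora74a, Snora62 and Snora7a were added after their values were seen. The lists cover box C/D core, box H/ACA core, assembly, trimming, non-coding host, ribosomal protein and ribosome biogenesis genes, and markers of 6 cell types. Alternatives were a further quantile normalization, median centring, cyclic loess, a replicate block, brighter genes only, the mean of all probe sets, eBayes without trend or robust, array weights, and each array left out.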

Additional observations from a re-analysis of the deposited data

How the results depend on the processing

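The Snora median difference was 0.249 after median centring, and 0.265 to 0.408 with single arrays left out; the median of all snoRNAs, 0.204, was 0.129 after median centring, 0.130 on omitting Stat2 KO replicate 3, 0.119 on omitting WT replicate 1, and at most 0.276. That of Snord, 0.14, was 0.0652 after median centring and 0.0372 to 0.175 with single arrays left out. Each class's median deviation per array had an SD within host genotypes, pooled over both. The moves of all snoRNAs and of Snord were below this SD, 0.104 and 0.125. For Snora, the moves from 0.324 to 0.249 and to 0.408 exceeded this within-genotype SD, 0.071. The count of snoRNAs higher at an unadjusted limma p under 0.05, 15, was 8 after median centring (2.95% of all genes) and 27 with array weights (12.1%). With arrays left out it was 8 to 24 (3.39% to 8.24%). The count of lower ones, 3, was 1 among genes brighter than the median gene (5.75% of that set). With arrays left out it was 1 to 4 (1.69% to 6.46% of all genes). Non-overlapping higher snoRNAs numbered 10 to 29 with arrays left out (11.5% to 20.0% of all genes). Lower ones numbered 1 after quantile normalization (5.47% of all genes), 2 after median centring (6.54%) and 1 after cyclic loess (6.13%). With arrays left out these lower ones numbered 1 to 5 (7.21% to 14.7% of all genes). Genes past the adjusted threshold, 2, numbered 0 after quantile normalization, 0 after cyclic loess, 1 without the trend, 257 with array weights and 0 to 17 with arrays left out.

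Same-numbered tumours deviated with correlations of 0.24, 0.079 and 0.03, so the numbers were not taken as pairs. With the replicate number as a block, 20 snoRNAs were higher (6.44% of all genes) and 2 lower (4.76%) at an unadjusted p under 0.05, and the median differences stayed as they were.

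The difference of Snord37 was 0.48 with array weights and -0.55 to 0.28 with arrays left out, turning to 0.10, 0.28 and 0.01 on omitting, in turn, Stat2 KO replicates 1 and 2 and the first WT replicate. That of Snord110 ranged from -0.40 to 0.21, turning to 0.08, 0.21 and 0.11 when Stat2 KO replicate 3, WT replicate 2 or WT replicate 3 was omitted. That of Snord13 ranged from -0.08, when Stat2 KO replicate 3 was omitted, to 0.62. The cause of these changes was not tested. Signal over background was not available beyond the olfactory receptor level, which limits the dim Snord genes most.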
